A study of Homo sapiens with 3 samples.

Results

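The genes described are the Wnt ligands, their Frizzled receptors and co-receptors, the secreted Wnt inhibitors of the DKK and SFRP families, and 3 feedback regulators of the pathway. They were measured in derivatives of HT1080, an established human fibrosarcoma cell line, on Affymetrix expression arrays. Members were taken by gene symbol (WNT, FZD, DKK1 to DKK4 and SFRP1 to SFRP5, with LRP5, LRP6, ADGRA2, AXIN2, RNF43 and ZNRF3) among probe sets annotated with 1 gene, and each gene was read from its brightest probe set over the arrays. This gave 42 genes of 19775 on the array, measured by 85 probe sets. Of the members, 40 are protein-coding Wnt genes, and FZD10-AS1 and FZD4-DT are noncoding RNAs that the symbol pattern also took. A further 6 probe sets with a fitting symbol carried several gene names and were not used.

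There were 3 lines with 1 array each. RECK/4NQ cells carried a vector for a RECK protein with 4 N-glycosylated asparagines changed to glutamine, RECK cells carried the vector for unaltered RECK, and Zeo cells were mock-transfected. The medium of all 3 held Zeocin at 50 µg/mL, which selects for the vector, besides 10% serum. Whether the lines are single clones or pools, and which vector the Zeo cells received, is not stated in the labels. With 1 array per line there is no replicate, SD or p-value, and the transfected gene cannot be told apart from anything else that differed between the cultures.

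Wnt proteins are lipid-modified secreted ligands that bind Frizzled receptors. With the co-receptors LRP5 or LRP6 they stabilise beta-catenin, which acts with TCF and LEF factors on target genes, while other Wnts, such as WNT5A, mostly act on cell shape and migration without beta-catenin. RECK, a membrane-anchored glycoprotein best known as an inhibitor of matrix metalloproteinases, is also part of a receptor complex with the adhesion receptor ADGRA2 (GPR124). In brain endothelium this complex passes signals of WNT7A and WNT7B to Frizzleds. Both partners of RECK in that complex, the ligands and ADGRA2, are among the members.

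The values are MAS5 signals on a linear scale in arbitrary units. Signals below 12.3, the 40th percentile of all values, were taken as too weak to rank and set to that floor. Genes counted as higher or lower were those at least 2-fold apart with no more than 1 signal under the floor. Where 1 signal was below the floor, the fold is a lower bound. As an error scale, ratios are given in spreads: 1 spread is the robust SD of ratios over 1000 genes of similar level, and it contains true differences besides noise. Over the 14282 genes whose mean level reached the floor, the log2 ratio had a median of -0.12 in RECK/4NQ against Zeo. It was -0.19 in RECK against Zeo and 0.06 in RECK/4NQ against RECK. Ratios called relative, or relative to all genes, have these medians subtracted. The hybridisation controls, spiked in at the same amount, were at -0.05 ± 0.12, 0.34 ± 0.17 and -0.39 ± 0.13 in the same comparisons (mean log2 ratio ± SD over 18 probe sets). In RECK against Zeo and in RECK/4NQ against RECK their sign was opposite to that of the gene medians. No ratio was scaled to these controls, so calls near 2-fold in those comparisons depend on the scaling. The 6 listed markers of mesenchymal cells, among them VIM and FN1, were all at signals of 2444 or more on every array. None of 6 epithelial markers was above the floor on all arrays. Of the endothelial markers 1 of 6 was, of the leukocyte markers 2 of 5 and of the neural markers 5 of 6. The highest signals in these 4 lists were 19.8, 108, 121 and 63.4, so a signal above the floor was also read by probe sets for genes of other cell types. The part of such background in the members' signals was not tested. The brightest RECK probe set, with a suffix that marks possible cross-hybridisation, read 442 in RECK/4NQ, 387 in RECK and 264 in Zeo, 1.68-fold and 1.47-fold above Zeo and short of the rule. Its other 4 probe sets read 26.2 or less on every array. Of these, 1 was higher than Zeo in RECK/4NQ by at least 2.05-fold, and 1 was at least 2.14-fold lower in both transfected lines. In RECK over Zeo the others were at least 1.46-fold higher, at least 1.49-fold higher and 1.03-fold lower. Thus no RECK probe set was past 2-fold higher in RECK than in Zeo. Whether these probe sets read the transcript of the vector was not tested.

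Among the members, 2 genes stood out by agreement of several probe sets. DKK3, a secreted glycoprotein of the Dickkopf family, had its highest signal in RECK, an intermediate one in Zeo and its lowest in RECK/4NQ. ADGRA2 was lowest in RECK/4NQ by both of its probe sets. WNT5A was read more strongly in RECK than in the other lines but stayed short of 2-fold. Most of the other calls rested on dim signals.

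**Figure D1:**
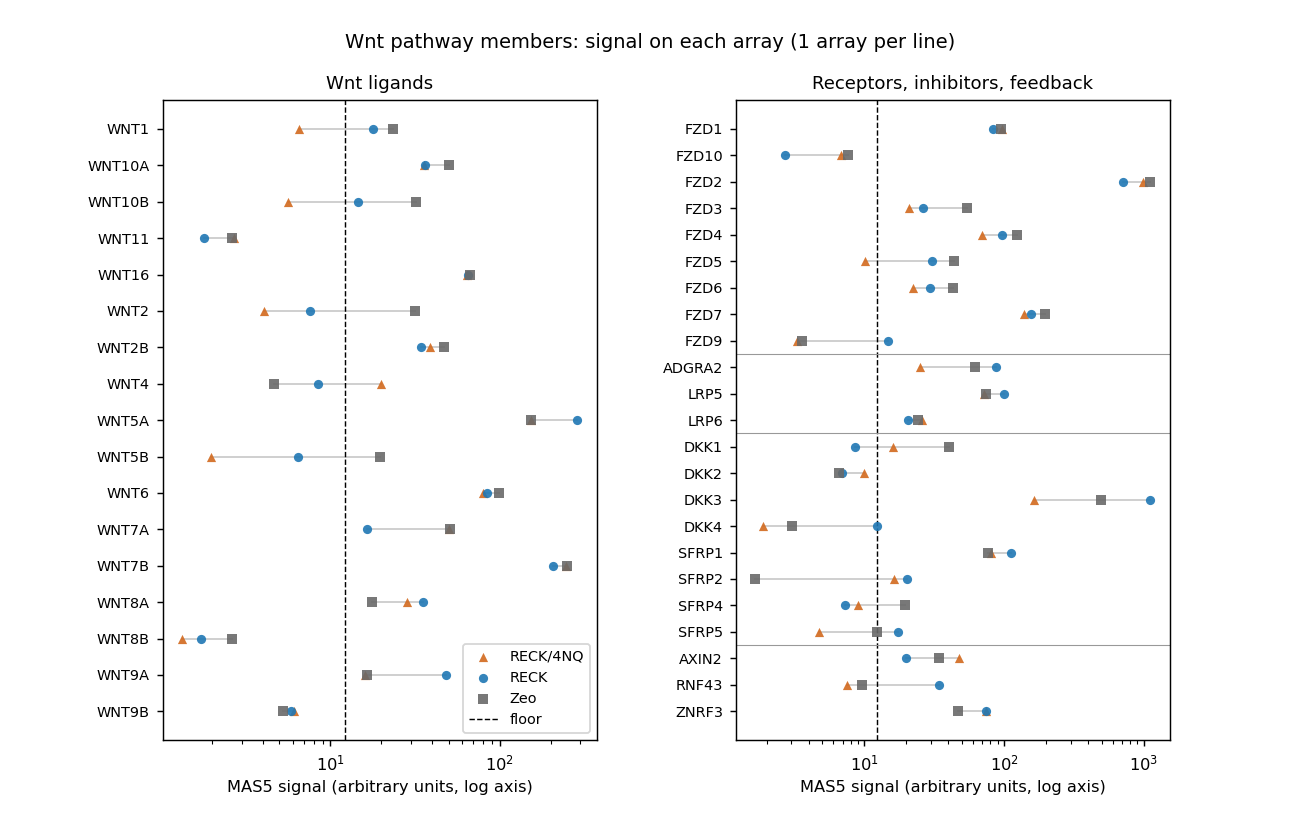
MAS5 signal (log axis, arbitrary units) of the 40 coding members on each array, with ligands on the left and Frizzleds, co-receptors, secreted inhibitors and feedback regulators, separated by lines, on the right. Each symbol is 1 array, grey bars join the arrays of a gene, and the dashed line is the floor of 12.3. DKK3 spans 164 to 1105, and many members lie near or below the floor on at least 1 array.

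Of the 42 members, 22 reached the floor on all arrays (52.4%, against 62.7% of all genes), 15 on some and 5 on none. The 5 were the ligands WNT8B, WNT9B and WNT11, the receptor gene FZD10 and the inhibitor DKK2. In RECK/4NQ over Zeo 1 member was higher and 8 were lower, where 2.81% of all genes were higher and 7.13% lower. The higher one was the noncoding RNA FZD4-DT, so that 0 of the 40 coding members were higher and 7 lower. In RECK over Zeo 4 members were higher and 5 lower, against 4.03% and 6.70% of all genes. In RECK/4NQ over RECK 3 were higher and 5 lower, against 4.47% and 5.76%. As shares of the members these were 2.38% and 19.0%, 9.52% and 11.9%, and 7.14% and 11.9%. Where both signals reached the floor, 0 members were higher and 4 lower in RECK/4NQ over Zeo (1.54% and 4.16% of all genes). On that rule 3 were higher and 3 lower in RECK over Zeo (2.20% and 4.01%), and 2 and 3 in RECK/4NQ over RECK (2.83% and 3.46%). For the 28 members whose mean level reached the floor, the median relative log2 ratio was -0.10, -0.11 and -0.35 in the same comparisons. With all probe sets of a gene averaged, the median was -0.82, -0.18 and -0.52 over the 20 members that then reached the floor. The first pair of comparisons shares the Zeo array, and the one of RECK/4NQ with RECK follows from the other two.

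**Figure D2:**
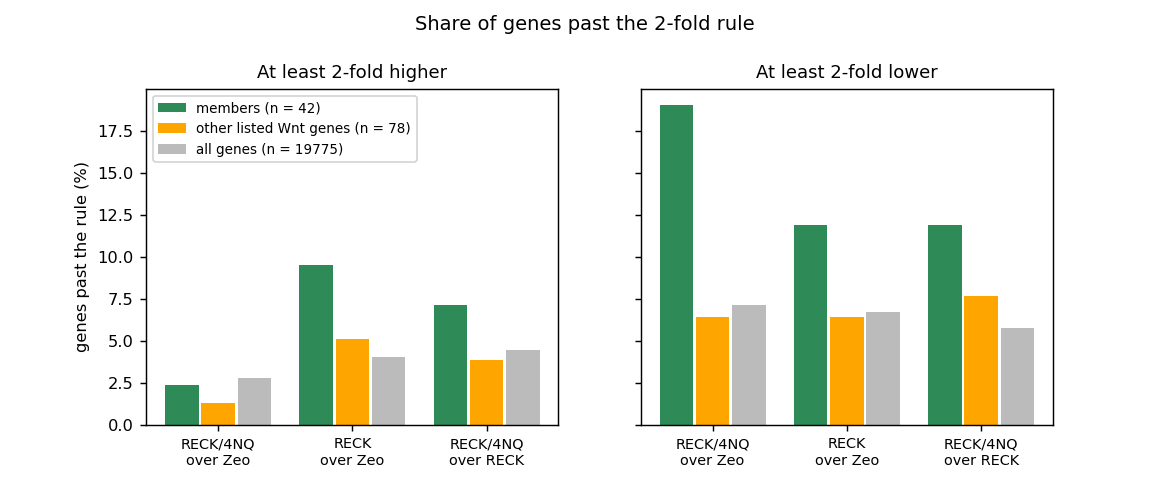
Share of genes (%) past the 2-fold rule, higher on the left and lower on the right, for the 42 members, for 78 other listed Wnt pathway genes and for all 19775 genes, by comparison. The share of members lower in RECK/4NQ than in Zeo is 19.0%, against 7.13% of all genes.

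Among the 17 ligands, WNT5A, the main ligand of beta-catenin-independent signalling, had a signal of 153 in RECK/4NQ, 287 in RECK and 154 in Zeo. It was thus 1.86-fold higher in RECK than in Zeo, 2.53 spreads above genes of like level, and 1.88-fold lower in RECK/4NQ than in RECK. A second, dimmer WNT5A probe set had the same order of RECK above the others, at 24.0, 37.5 and 26.8. RECK stood apart, and RECK/4NQ and Zeo were within 1.01-fold of each other in the brighter probe set.

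The WNT7 ligands, which signal through RECK and ADGRA2, were both lowest in RECK, but only WNT7A was past 2-fold. WNT7A read 50.4 in RECK/4NQ, 16.5 in RECK and 51.0 in Zeo by its only probe set, which was 3.10-fold lower in RECK than in Zeo and 3.06-fold higher in RECK/4NQ than in RECK. The ratio to Zeo lay 2.12 spreads below genes of like level. WNT7B read 246, 207 and 249 by a probe set whose suffix marks possible cross-hybridisation, and 70.6, 45.8 and 71.1 by the other. Both WNT7B probe sets were lowest in RECK, by 1.20-fold and 1.55-fold against Zeo, short of the rule.

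The promoter of WNT7A is shown because its product is a ligand of the RECK complex and its probe set was past 2-fold lower in RECK than in Zeo. The sequence is RefSeq's for GRCh38.p14, the 250 bases before the gene start at chr3:13880072-13880321 on the minus strand, and capitals would mark TCF matches, of which it held 0.
WNT7A: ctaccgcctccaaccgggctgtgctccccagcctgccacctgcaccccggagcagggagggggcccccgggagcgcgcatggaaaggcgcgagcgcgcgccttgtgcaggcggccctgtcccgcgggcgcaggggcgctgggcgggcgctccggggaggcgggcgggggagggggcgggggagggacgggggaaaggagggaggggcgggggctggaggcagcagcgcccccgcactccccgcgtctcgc

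Of the other ligands, 4 were called in RECK or RECK/4NQ over Zeo. WNT9A read 15.9 in RECK/4NQ, 48.5 in RECK and 16.5 in Zeo, 2.94-fold higher in RECK than in Zeo, while its other probe set was below the floor on every array. WNT8A read 28.3, 35.5 and 17.6, 2.01-fold higher in RECK than in Zeo. WNT10B read 5.65, 14.6 and 32.2, which put it at least 2.63-fold lower in RECK/4NQ and 2.20-fold lower in RECK than in Zeo. WNT2 was above the floor in Zeo alone, at 31.7 against 4.07 in RECK/4NQ and 7.53 in RECK, at least 2.59-fold lower in each. All 4 ratios to Zeo lay within 2 spreads of genes of like level.

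The ligands above the floor on all arrays without a call, other than those above, were within 1.5-fold of each other in the lines by their brightest probe set. WNT16 read 64.1 in RECK/4NQ, 65.3 in RECK and 67.3 in Zeo. WNT6 read 80.2, 84.2 and 98.6, WNT10A 35.9, 36.2 and 50.4, and WNT2B 38.9, 34.4 and 46.8. Each of these 4 was highest in Zeo. For WNT2B a second probe set read 28.2, 17.9 and 11.7, lowest in Zeo, which put it past 2-fold higher in RECK/4NQ than in Zeo (a log2 ratio of at least 1.20), so its probe sets disagreed. WNT1, WNT4 and WNT5B passed the floor on some arrays only, with signals between 1.97 and 23.5 and no call.

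Of the 9 Frizzled genes, the cell-surface receptors of Wnts, none was past 2-fold higher than Zeo in either transfected line. By direction alone, 6 of 7 with a usable signal were below Zeo in RECK/4NQ and 7 of 8 in RECK, where 59.9% and 64.4% of all usable genes were below Zeo. The Frizzled counts were the same after median centring and after quantile normalisation, and 6 of 7 and 5 of 7 with probe sets averaged. The ligands were also mostly below Zeo, 12 of 14 in RECK/4NQ and 10 of 13 in RECK. After median centring, and after quantile normalisation, the ligand counts were 7 of 14 and 9 of 13. The shares of all genes below Zeo were taken from the signals as deposited only. The median relative log2 ratio was -0.71 in RECK/4NQ and -0.31 in RECK, over the 7 Frizzleds whose mean level reached the floor. Past 2-fold were 2 of the 9 in RECK/4NQ over Zeo and 1 of 9 in RECK over Zeo, and 7.13% and 6.70% of all genes were lower in those comparisons.

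FZD2 read 986 in RECK/4NQ, 707 in RECK and 1115 in Zeo, which was 1.58-fold lower in RECK than in Zeo. Its second probe set read 194, 168 and 259 and gave 1.54-fold. FZD7 read 139, 155 and 197, and its second probe set 82.0, 97.8 and 120. Both genes thus had the same order of lines in both of their probe sets, with Zeo highest. FZD4, a receptor for WNT7 signals in endothelium, read 69.3 in RECK/4NQ, 96.2 in RECK and 123 in Zeo, 1.78-fold lower in RECK/4NQ than in Zeo. FZD1 was near equal, at 97.3, 83.0 and 95.2. FZD6 read 22.3, 29.4 and 43.4.

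The called Frizzleds were dim. FZD3 read 20.9 in RECK/4NQ, 26.5 in RECK and 54.7 in Zeo, 2.62-fold and 2.07-fold lower than Zeo, but another of its probe sets read 33.6, 18.6 and 25.1, with RECK/4NQ highest. FZD5 read 10.1, 30.7 and 43.5, at least 3.55-fold lower in RECK/4NQ than in Zeo, and its second probe set read 18.5, 14.7 and 31.4, where the lowest line was RECK. Zeo was the highest line in both FZD5 probe sets. FZD9 passed the floor in RECK only, at 14.7, with 3.31 in RECK/4NQ and 3.58 in Zeo.

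The 3 co-receptor genes reached the floor on all arrays. ADGRA2, which with RECK conveys WNT7 signals, read 25.0 in RECK/4NQ, 87.2 in RECK and 62.4 in Zeo. Its second probe set read 19.1, 71.9 and 45.3. RECK/4NQ was the lowest line and RECK the highest in both. By the brighter probe set ADGRA2 was 2.50-fold lower in RECK/4NQ than in Zeo and 3.49-fold lower than in RECK, and by the other 2.37-fold and 3.77-fold. RECK over Zeo was 1.40-fold and 1.59-fold, short of the rule. Relative to all genes the log2 ratios were -1.20 for RECK/4NQ over Zeo, 0.68 for RECK over Zeo and -1.87 for RECK/4NQ over RECK. They lay 1.76 spreads below, 1.43 above and 2.98 below genes of like level.

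LRP5 and LRP6, the co-receptors of beta-catenin signalling, were not past 2-fold in any comparison by their brightest probe sets. LRP5 read 71.8 in RECK/4NQ, 99.9 in RECK and 74.9 in Zeo, and LRP6 read 25.7, 20.5 and 24.3. A dim second LRP5 probe set read 3.30, 19.2 and 24.9, at least 2.03-fold lower in RECK/4NQ than in Zeo. The LRP5 probe sets thus disagreed, also on the order of RECK and Zeo.

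**Figure D3:**
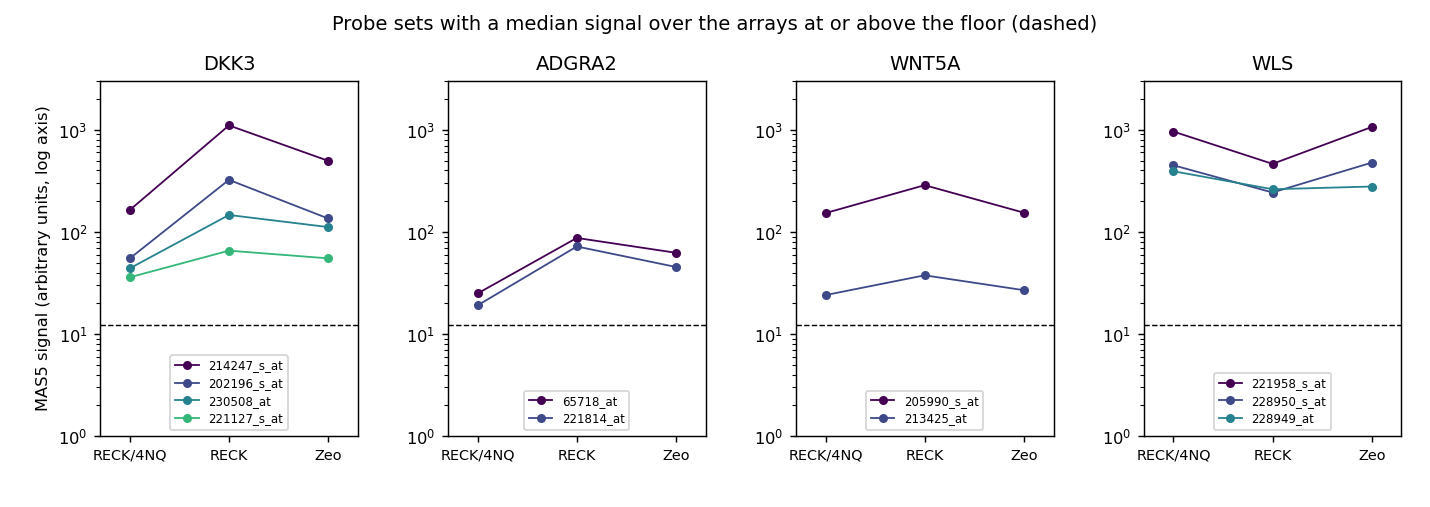
MAS5 signal (log axis, arbitrary units) on the RECK/4NQ, RECK and Zeo arrays for each probe set of DKK3, ADGRA2, WNT5A and WLS whose median over the arrays was at or above the floor (dashed, 12.3). Each line joins the values of 1 probe set. All 4 DKK3 and both ADGRA2 probe sets shown are lowest in RECK/4NQ and highest in RECK.

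Of the 8 secreted inhibitors, DKK3 had the highest signals. DKK3 is a distant member of the Dickkopf family, known for low levels in many tumours, and unlike DKK1 it is not an established blocker of LRP5 and LRP6. It read 164 in RECK/4NQ, 1105 in RECK and 498 in Zeo, so it was 3.04-fold lower in RECK/4NQ than in Zeo, 2.22-fold higher in RECK than in Zeo and 6.74-fold lower in RECK/4NQ than in RECK. These ratios lay 4.42 spreads below, 3.35 above and 6.75 below genes of like level, and relative to all genes the log2 ratios were -1.48, 1.35 and -2.82. Of its dimmer probe sets, 1 read 55.0, 324 and 135, 1 read 44.0, 146 and 111, and 1 read 35.9, 65.5 and 55.1. The order of RECK above Zeo above RECK/4NQ held in all 4. The dimmest 2 of these put RECK 1.31-fold and 1.19-fold above Zeo, short of the rule, and RECK/4NQ 2.54-fold and 1.53-fold below Zeo. The other 2 DKK3 probe sets were at 12.3 or less on every array. The brightest probe set has a suffix that marks possible matches to further transcripts. Without such probe sets the log2 ratio was -1.34 in RECK/4NQ against Zeo, 0.39 in RECK against Zeo, short of the rule, and -1.74 in RECK/4NQ against RECK. With probe sets averaged, dim ones included, both ratios to Zeo were short of 2-fold, 0.30 on the log2 scale in RECK, and the log2 ratio of RECK/4NQ to RECK was -1.30.

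DKK1, the secreted blocker of LRP5 and LRP6 and itself a known target of beta-catenin, read 15.9 in RECK/4NQ, 8.62 in RECK and 40.3 in Zeo by its only probe set. It was 2.53-fold lower in RECK/4NQ and at least 3.29-fold lower in RECK than in Zeo. The signals were dim, and the ratios lay 0.96 and 1.51 spreads below genes of like level. The promoter of DKK1 is shown because it was the only member promoter with a TCF and LEF match, among 25 members with an entry in RefSeq's table. DKK3 and AXIN2 had no entry and were not searched. The letters searched were CTTTG followed by A or T at each of the next 2 positions, on both strands of the 250 bases before each gene start. Over the 35116 promoters listed in that table, 12.0% held at least 1 match and 1.21% held 2 or more. Of the 29 promoters of members, 1 held a match (3.45%). The sequence lies at chr10:52314031-52314280 of GRCh38.p14 on the plus strand, with its 2 matches in capitals, starting 95 and 76 bases before the gene start. A match is a string of letters and was not tested as a binding site.
DKK1: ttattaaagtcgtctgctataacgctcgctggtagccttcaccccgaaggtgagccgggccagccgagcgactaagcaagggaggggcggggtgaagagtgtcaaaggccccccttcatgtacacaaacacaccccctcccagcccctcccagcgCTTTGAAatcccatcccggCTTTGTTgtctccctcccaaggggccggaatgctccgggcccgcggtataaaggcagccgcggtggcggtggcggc

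SFRP1, which binds Wnts in the extracellular space, read 80.2 in RECK/4NQ, 112 in RECK and 77.2 in Zeo, short of 2-fold. Its other 3 probe sets read 21.5 or less on every array, and 1 of them was highest in Zeo at 21.5. SFRP2, SFRP4, SFRP5 and DKK4 passed the floor on 1 or 2 arrays, with no signal above 20.3 and no call.

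The 3 feedback regulators act against the pathway and are known targets of it. AXIN2, a scaffold of the beta-catenin destruction complex, read 47.2 in RECK/4NQ, 19.9 in RECK and 34.3 in Zeo, 2.38-fold higher in RECK/4NQ than in RECK. Its other 3 probe sets were below the floor in RECK/4NQ, at 2.73 to 7.98, and above it in Zeo, at up to 29.3, so AXIN2 had no agreed direction. RNF43, a ubiquitin ligase that removes Frizzleds from the surface, read 7.56 in RECK/4NQ, 34.3 in RECK and 9.69 in Zeo, at least 2.80-fold higher in RECK than in each of the others. ZNRF3, its paralogue, read 74.4, 74.1 and 47.2, 1.58-fold and 1.57-fold above Zeo. Among these genes the order of the lines differed from gene to gene. Of the noncoding RNAs, FZD4-DT read 26.3 in RECK/4NQ, 8.46 in RECK and 3.36 in Zeo, and FZD10-AS1 read 8.11, 22.1 and 29.4, each with at least 1 line below the floor.

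Agreement between probe sets of a gene bears on how far single calls can be read, though probe sets of 1 array share its RNA. For members called in RECK/4NQ over Zeo, 5 of 8 other usable probe sets moved the same way and 3 of these passed 2-fold. In RECK over Zeo it was 4 of 4, with 1 past 2-fold, and in RECK/4NQ over RECK 4 of 8, with 3. All of those past 2-fold belonged to DKK3 or ADGRA2. In RECK/4NQ over RECK all that moved the same way did too. The usable ones of AXIN2 and FZD5 there moved the opposite way. Over all called genes 61.7%, 62.9% and 64.8% moved the same way and 14.6%, 19.4% and 21.2% also passed 2-fold. The called members DKK1, WNT2, WNT7A, WNT8A, WNT10B, RNF43 and FZD4-DT had 1 probe set each. For WNT9A and FZD10-AS1 the other probe set was below the floor on every array. Agreement could not be judged for any of these genes.

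Other genes of the pathway were taken from lists of Wnt secretion, further receptors and extracellular modulators, planar polarity, cytoplasmic and nuclear components, and targets. Of 78 such genes that are no members, 1 was higher and 5 lower in RECK/4NQ over Zeo, where 2.81% of all genes were higher and 7.13% lower. In RECK over Zeo 4 were higher and 5 lower (4.03% and 6.70% of all genes), and in RECK/4NQ over RECK 3 were higher and 6 lower (4.47% and 5.76%). Their medians relative to all genes were 0.04, 0.03 and 0.05. These counts, and those of the single lists, are near or too small to set apart from the shares of all genes. Of 16 cytoplasmic genes 1 was lower in RECK/4NQ than in Zeo, with 1 higher and 1 lower in RECK, and of 13 nuclear genes 1 was lower in RECK/4NQ and 0 were called in RECK. Of 16 target genes that are no members, 0 were called in RECK/4NQ over Zeo and 1 was lower in RECK over Zeo. That target was NKD1, which binds Dishevelled and dampens the pathway, at 45.2 in RECK/4NQ, 15.1 in RECK and 81.5 in Zeo. It was 5.41-fold lower in RECK than in Zeo, 3.73 spreads below genes of like level, while a dimmer NKD1 probe set read 21.3, 28.2 and 19.5.

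WLS, the carrier that every lipid-modified Wnt needs to reach the cell surface, was the called pathway gene whose signals were farthest above the floor in all lines. It read 961 in RECK/4NQ, 464 in RECK and 1065 in Zeo, 2.29-fold lower in RECK than in Zeo and 2.07-fold higher in RECK/4NQ than in RECK. A second WLS probe set read 449, 243 and 477, 1.96-fold lower in RECK than in Zeo. The last read 393, 262 and 278, where RECK was lowest by only 1.06-fold against Zeo. RECK was thus the lowest line in all 3.

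Of the 4 listed genes called higher in RECK over Zeo, 3 had the largest ratios. GPC4, a glypican that binds Wnts, read 11.2 in RECK/4NQ, 110 in RECK and 20.7 in Zeo, 5.32-fold higher in RECK than in Zeo, and its second probe set read 3.85, 65.2 and 9.46. RSPO4, an R-spondin that strengthens Wnt signalling, read 18.4, 91.9 and 15.0, 6.13-fold higher in RECK than in Zeo. DAAM2, a formin that binds Dishevelled, read 19.9, 105 and 8.53, at least 8.58-fold higher. These 3 ratios lay 3.67, 3.94 and 4.63 spreads above genes of like level, and RSPO4 and DAAM2 each had 1 probe set.

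The Kremen genes, whose products bind DKK1 and help it remove LRP6, had opposite orders. KREMEN1 read 14.7 in RECK/4NQ, 59.1 in RECK and 45.5 in Zeo, 3.10-fold lower in RECK/4NQ than in Zeo, with its other 4 probe sets at 16.3 or less. KREMEN2 read 71.6, 27.2 and 30.2, 2.37-fold higher in RECK/4NQ than in Zeo. TNKS, which marks axin for removal, read 36.7 in RECK/4NQ, 54.4 in RECK and 21.1 in Zeo, 2.58-fold higher in RECK than in Zeo. Its other 3 probe sets read 19.6 or less. TRABD2A, a protease that inactivates Wnts, read 48.6, 81.5 and 103, 2.12-fold lower in RECK/4NQ than in Zeo. Its other probe set went the opposite way, at 31.2, 20.5 and 5.57, at least 2.55-fold higher in RECK/4NQ than in Zeo, so TRABD2A had no agreed direction. TCF7L1, a TCF factor, read 17.6, 34.3 and 39.2, 2.23-fold lower in RECK/4NQ than in Zeo.

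The remaining listed calls were these. LGR4, a receptor of R-spondins, read 15.4 in RECK/4NQ, 10.1 in RECK and 33.2 in Zeo. AMER1 read 4.79, 8.02 and 28.9. DAAM1 read 32.0, 18.1 and 43.2. Dimmer DAAM1 probe sets read 7.38, 21.5 and 23.0, and 4.54, 18.5 and 32.6. Zeo was highest in these and in the brightest, with the other lines in opposite order. A further probe set read 15.6, 11.9 and 14.0, with RECK/4NQ highest, so the DAAM1 probe sets disagreed. NOTUM, a secreted enzyme that removes the lipid of Wnts, read 46.4, 98.5 and 80.9, 2.12-fold lower in RECK/4NQ than in RECK. ROR1, a receptor of WNT5A, read 1.38 in RECK/4NQ and 26.2 in RECK.

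**Figure D4:**
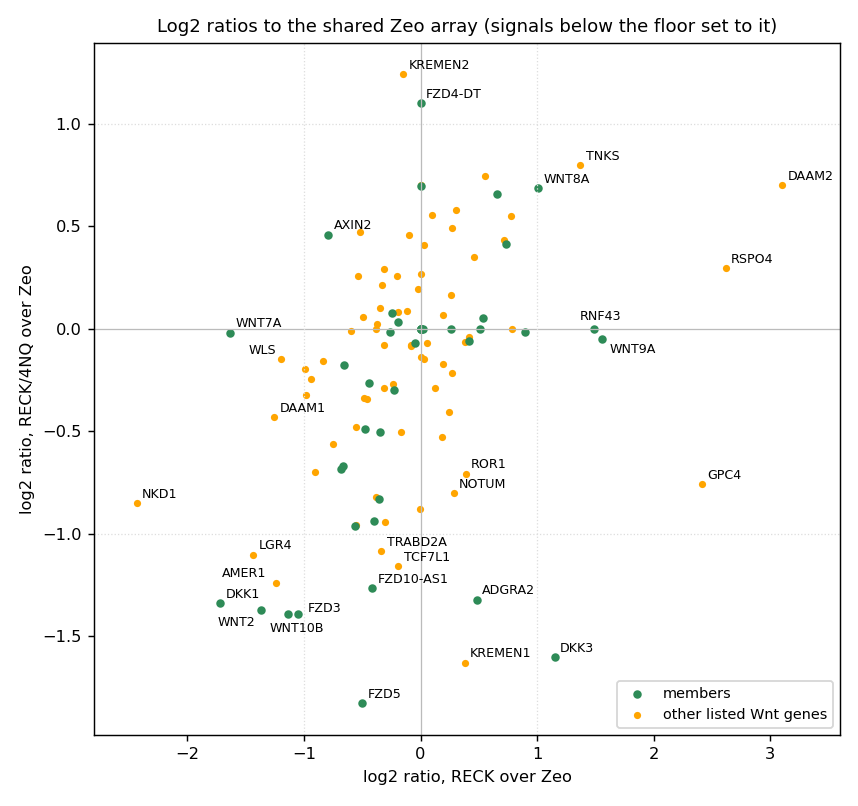
Log2 ratio to the Zeo array of the members and of other listed Wnt genes, with RECK on the horizontal and RECK/4NQ on the vertical axis; signals below the floor were set to it, and genes past 2-fold in any comparison are named. Both axes share the Zeo array, so points can line up along the rising diagonal through that array alone. DKK3, at 1.15 and -1.60, is the only named member beyond 2-fold in opposite directions.

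The genes beside DKK3 and ADGRA2 on their chromosomes were read for comparison. Among the 5 nearest genes on each side, 7 near DKK3 were at or above the floor in both RECK/4NQ and RECK, with a median log2 ratio of 0.83 where DKK3 was at -2.75, and 2 of them were at least 2-fold higher. For RECK over Zeo 9 near DKK3 had a median of -0.33. Near ADGRA2, 6 genes had a median of -0.04 in RECK/4NQ against Zeo, where ADGRA2 was at -1.32, and of -0.45 in RECK/4NQ against RECK, where it was at -1.81, and none of these was past 2-fold.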

How the data were processed

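The authors deposited linear intensity values for every probe set of each array. Per the submitters' processing notes these are MAS5 signals; neither version nor scaling is stated. MAS5 subtracts an estimate from mismatch probes, which makes weak signals noisy. The array held 54675 probe sets, of which 62 were controls, 41091 had 1 gene symbol, 1801 had several and 11721 had none. A gene was read from the probe set with the highest mean log2 signal. Signals were used as deposited, with a floor at the 40th percentile (12.3) and calls at 2-fold. Symbols were checked against RefSeq's GRCh38.p14 gene table (0 member symbols needed an update), which also gave neighbours and promoters. Named genes were all members above the floor on at least 1 array, RECK, and listed pathway genes past 2-fold. The members, lists and settings were chosen with earlier results of these data known. The 8 alternatives changed the floor, scaling, choice of probe set or fold. Calculations used Python 3.11.15, pandas 2.3.3 and numpy 2.4.6.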

Additional observations from a re-analysis of the deposited data

Results flagged for a closer look

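DKK3 was past 2-fold in opposite directions in the transfected lines: its log2 ratio to Zeo was -1.60 in RECK/4NQ and 1.15 in RECK. Of all 19775 genes, 20 (0.101%) were likewise higher in RECK and lower in RECK/4NQ. Without probe sets marked for possible matches to further transcripts, the DKK3 log2 ratio in RECK was 0.39, short of the rule. With 1 array per line the difference in DKK3 was not tested.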

How the results depend on the processing

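No paired analysis was possible because each line has 1 array. ADGRA2 kept both of its calls, and DKK3 its call for RECK/4NQ over RECK, under all 6 alternatives that kept the 2-fold rule. That DKK3 log2 ratio, -2.75, was -1.74 with shared probe sets left out and -1.30 with probe sets averaged. The members' median relative log2 ratio for RECK/4NQ over Zeo was -0.82 with probe sets averaged, against -0.10. The DKK3 calls against Zeo were lost with probe sets averaged, and that for RECK over Zeo also with shared probe sets left out. Counts of members are given as higher and lower, in the order RECK/4NQ over Zeo, RECK over Zeo, RECK/4NQ over RECK, against 1 and 8, 4 and 5, and 3 and 5 as reported. Under a floor at percentile 60 they were 0 and 2, 1 and 0, and 0 and 2. Over all 19775 genes that floor gave 165 and 456, 328 and 524, and 381 and 468. Under a floor at percentile 20 higher members numbered 3 in the first and 8 in the second, and lower members 11 in the third. The same counts over all genes were 1413, 1697 and 2318. Lower members in RECK over Zeo were 3 after median centring and 3 after quantile normalisation, which also took 2 of the dim calls (FZD3 and WNT10B), and higher members there were 2 with probe sets averaged. At 1.5-fold the first were 4 and 13 and the second 7 and 9. At 3-fold they were 0 and 2, 0 and 2, and 1 and 3. At these folds, and with probe sets averaged, the members' counts were not set beside those of all genes. Over all genes, the 556 higher and 1410 lower in RECK/4NQ over Zeo were 780 and 919 after quantile normalisation, and the 796 and 1325 in RECK over Zeo were 1068 and 917. After median centring those in RECK over Zeo were 999 and 964. Of 156 single-gene log2 ratios under alternatives 129 shifted by less than 1 spread, 25 by more, and 2 reversed, both with probe sets averaged: FZD3 to 0.37 for RECK/4NQ over Zeo and AXIN2 to -0.19 for RECK/4NQ over RECK. The averages include signals below the floor. Otherwise the cause was not tested.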
